A study of Mus musculus with 20 samples.

Results

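The choroid plexus genes described here are 10 protein-coding genes, Ttr, Enpp2, Kl, Sostdc1, Folr1, Aqp1, Kcnj13, Clic6, Cldn2 and Otx2, taken by gene symbol from a table of 43346 genes. They were measured by bulk RNA sequencing in 20 cortex libraries. All animals carried 1 copy of the 5xFAD transgenes (5xFAD+/-), human amyloid precursor protein and presenilin 1 genes with familial Alzheimer's disease mutations, driven in neurons by the Thy1 promoter. The groups were knockin mice (KI) with a p.A693S substitution in Abca7 at 10 months of age, control mice with wild-type Abca7 at 10 months, KI mice at 3 months and control mice at 3 months, with 5 libraries each. The series' design text names the substitution A696S. Abca7 encodes a lipid transporter linked to Alzheimer's disease risk. The protocol names heterozygous and homozygous knockin males, which the KI label does not tell apart. Separate animals per library are not stated in the labels either, so a p-value here speaks only of variation among libraries, part of which may be technical. The study asked how the substitution affects amyloid and immune responses in the brain, and the counts were used here to ask how the choroid plexus genes varied across libraries and groups.

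The choroid plexus is a sheet of epithelium folded over fenestrated vessels inside the brain ventricles. Its epithelial cells secrete cerebrospinal fluid by moving ions and water from blood to ventricle, seal the path between cells with tight junctions, and release carrier proteins and enzymes into the fluid. It is not part of the cortex, which is made of neurons, glia and vessels, and several of its genes are expressed little or not at all by other brain cells.

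Library totals ran from 42896149 to 57447015 counts, and the 10 genes together made up 0.0319% to 0.353% of the counts of a library. All 10 passed the filter on low counts, which left 19623 genes for testing. The 12 cortical layer markers were all counted, and summed to between 902 and 1167 CPM, which are counts put on a common library size and scaled by TMM, over the 20 libraries. The library labelled KI, 10 months, replicate 5 held 54206 counts of Xist, which is transcribed from the inactive X, but 1 count of Ddx3y, a gene of the Y chromosome. In the other 19 libraries Xist reached 218 counts at most and Ddx3y never fell under 2382, so this library went against the protocol's description of the animals as male, and the median fold changes and pair correlations of the 10 genes are also given without it. A point substitution is not visible in counts per gene.

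The choroid plexus genes differed widely between libraries of the same group. Between the lowest and the highest library of a group, Ttr differed by up to 98.8-fold, Cldn2 by up to 80.2-fold and Folr1 by up to 48.7-fold, each among control libraries of 10 months. Over all 20 libraries the range was 147-fold for Ttr, 90.2-fold for Cldn2 and 49.0-fold for Folr1. The 10 genes were high and low in much the same libraries, and the lowest of these were spread over all 4 groups. No gene of the 10 passed the test in any comparison of genotype or age. In bulk tissue, fewer choroid plexus cells in a library and less RNA per cell cannot be told apart.

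Ttr (ENSMUSG00000061808; mm10 chromosome 18, 20665250 to 20674324, plus strand) encodes transthyretin, the carrier of thyroid hormone and of retinol-binding protein that the epithelium secretes into cerebrospinal fluid. Ttr had 897, 26.1, 18.6, 13.9 and 1157 CPM in the KI libraries of 10 months (replicates 3 to 7), against 1797, 747, 1948, 19.7 and 124 CPM in the control libraries of 10 months (replicates 6 to 10). It had 1379, 45.3, 2036, 50.7 and 954 CPM in the KI libraries of 3 months (replicates 3 to 7), against 37.1, 302, 1336, 886 and 771 CPM in the control libraries of 3 months (replicates 6 to 10). The ranges of all 4 groups overlapped, and no group stood clear of another. The lowest library rested on 761 counts and the highest on 101020, so counting error was small beside this spread. Group medians, from high to low, were 954 CPM in KI at 3 months, 771 CPM in control at 3 months, 747 CPM in control at 10 months and 26.1 CPM in KI at 10 months, and no neighbours in this order differed beyond their spread.

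Enpp2 (ENSMUSG00000022425; chromosome 15, 54838898 to 54920146, minus strand) encodes autotaxin, a secreted enzyme that makes the lipid signal lysophosphatidic acid, and is expressed by oligodendrocytes as well as by choroid plexus epithelium. It had 709.7, 293, 280.0, 295 and 1126 CPM in KI and 1451, 590.4, 1227, 286 and 404 CPM in control at 10 months. At 3 months it had 1725, 328, 1141, 286 and 747 CPM in KI and 324, 393, 661, 712 and 499 CPM in control. Its spread was the smallest of the 10, a 6.16-fold difference between the lowest and the highest library. No library fell below 280.0 CPM, or 286 CPM without the library with Xist counts, and the libraries high in Ttr were the libraries high in Enpp2.

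Kl (ENSMUSG00000058488; chromosome 5, 150952607 to 150993809, plus strand) encodes klotho, a membrane protein that is shed into cerebrospinal fluid and blood and acts as the co-receptor of the hormone FGF23. It had 31.9, 4.64, 6.99, 4.08 and 58.3 CPM in KI and 83.1, 29.0, 67.5, 4.38 and 9.20 CPM in control at 10 months. At 3 months Kl had 86.1, 6.92, 80.7, 6.06 and 37.7 CPM in KI and 6.08, 16.9, 31.4, 36.4 and 19.3 CPM in control. Its ranges overlapped between all groups. Sostdc1 (ENSMUSG00000036169; chromosome 12, 36314169 to 36318452, plus strand), a secreted antagonist of BMP and WNT signals, ran from 0.802 to 14.1 CPM, with medians of 1.82 CPM in KI and 4.21 CPM in control at 10 months, and 5.93 CPM in KI and 3.29 CPM in control at 3 months.

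Among the transport proteins, Folr1 (ENSMUSG00000001827; chromosome 7, 101858331 to 101870788, minus strand) encodes folate receptor alpha, which carries folate from blood into cerebrospinal fluid. Folr1 had medians of 0.638 CPM in KI (range 0.487 to 10.1) and 5.38 CPM in control (0.287 to 14.0) at 10 months, and of 7.91 CPM in KI (0.637 to 14.1) and 2.72 CPM in control (0.737 to 6.51) at 3 months. Aqp1 (ENSMUSG00000004655; chromosome 6, 55336432 to 55348555, plus strand) encodes the water channel of the apical membrane. It had 4.26, 0.946, 1.07, 0.802 and 6.87 CPM in KI and 10.4, 3.59, 14.1, 0.861 and 1.37 CPM in control at 10 months. At 3 months Aqp1 had 11.3, 0.678, 14.1, 1.32 and 7.29 CPM in KI and 0.935, 3.76, 6.07, 4.34 and 2.68 CPM in control. Both genes overlapped between all groups, as Ttr did.

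Kcnj13 (ENSMUSG00000079436; chromosome 1, 87386363 to 87394729, minus strand) encodes the inward rectifier potassium channel Kir7.1, and Clic6 (ENSMUSG00000022949; chromosome 16, 92485736 to 92541243, plus strand) a member of the chloride intracellular channel family. Kcnj13 ranged from 2.01 to 17.9 CPM in KI and from 1.54 to 27.4 CPM in control at 10 months, and from 2.09 to 27.5 CPM in KI and from 2.19 to 12.0 CPM in control at 3 months. Clic6 ranged from 2.68 to 30.1 CPM in KI and from 2.08 to 41.7 CPM in control at 10 months, and from 4.25 to 40.1 CPM in KI and from 3.92 to 20.7 CPM in control at 3 months. Each of these ranges overlapped the other 3 of its gene.

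Cldn2 (ENSMUSG00000047230; chromosome X, 139800828 to 139811386, plus strand) encodes claudin 2, a tight junction protein that forms pores for cations and water and marks leaky epithelia such as the choroid plexus. It had 6.40, 0.390, 0.431, 0.310 and 11.2 CPM in KI and 15.8, 6.82, 13.1, 0.197 and 1.36 CPM in control at 10 months. At 3 months Cldn2 had 17.8, 0.595, 16.9, 0.346 and 6.77 CPM in KI and 0.593, 2.85, 6.79, 8.68 and 3.36 CPM in control. In its lowest library it rested on 11 counts and in its highest on 840, so the low end of its range is less precise than that of Ttr. Otx2 (ENSMUSG00000021848; chromosome 14, 48657679 to 48667644, minus strand) encodes the homeobox transcription factor needed to form and maintain choroid plexus. It had 4.75, 0.761, 0.431, 0.711 and 6.20 CPM in KI and 9.95, 4.10, 6.85, 0.467 and 1.46 CPM in control at 10 months. At 3 months Otx2 had 10.6, 1.72, 10.2, 2.30 and 5.76 CPM in KI and 0.917, 1.76, 5.28, 5.45 and 3.64 CPM in control. The groups overlapped for both genes.

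**Figure D1:**
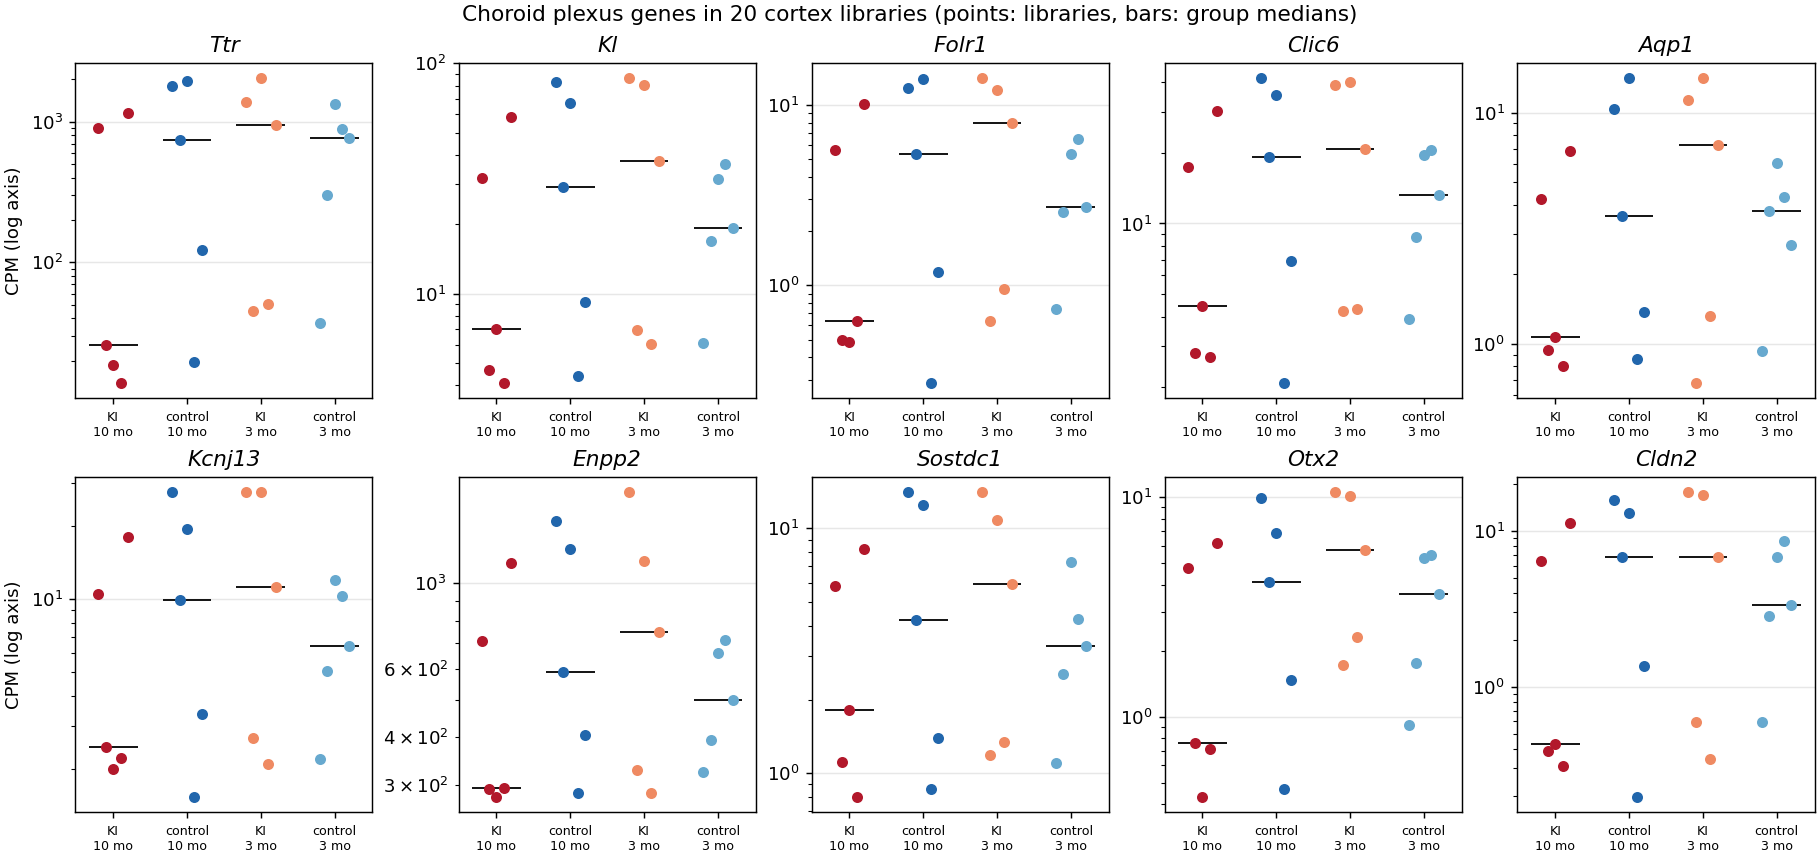
Level of each of the 10 genes (CPM, log axis) in KI and control libraries of 10 months and of 3 months. Points are libraries, 5 a group, and bars are group medians; in each panel the ranges of the 4 groups overlap, and control libraries of 3 months stop short of the highest values (712 CPM for Enpp2, against 1725 CPM in KI of 3 months).

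Per kilobase of gene length, which allows levels to be set against each other, the median over the 20 libraries was 622 CPM per kb for Ttr and 157 for Enpp2. It was 6.41 for Kcnj13, 4.73 for Kl, 3.92 for Clic6, 2.14 for Sostdc1, 1.75 for Folr1, 1.47 for Cldn2, 1.40 for Aqp1 and 1.14 for Otx2. The order of the last 8 is a description of medians, since each gene's range over libraries spanned at least 17.6-fold and overlapped its neighbours. Gene models of Folr1 and Anapc15, Kcnj13 and Gigyf2, Clic6 and 2410124H12Rik, Enpp2 and Gm26684, and Otx2 with Otx2os1 and Gm49154 overlap in the annotation (GENCODE M21). Whether counting used the strand is not given in the sources used here, so counts of these 5 genes could hold reads of their neighbours. Ttr, Kl, Aqp1, Sostdc1 and Cldn2 overlap no annotated gene.

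Upstream sequences are shown for Kcnj13, Cldn2 and Kl, which moved together over the libraries while their upstream windows differ in GC content. They are the 250 bases before the RefSeq start of each gene (GRCm38.p6, 5′ to 3′ on the gene's strand), at chr1:87394730-87394979 on the minus strand, chrX:139800558-139800807 on the plus strand and chr5:150952357-150952606 on the plus strand. Capitals mark matches on either strand to TATAAA, known as the TATA box, or to CCAAT, another common promoter element.
Kcnj13: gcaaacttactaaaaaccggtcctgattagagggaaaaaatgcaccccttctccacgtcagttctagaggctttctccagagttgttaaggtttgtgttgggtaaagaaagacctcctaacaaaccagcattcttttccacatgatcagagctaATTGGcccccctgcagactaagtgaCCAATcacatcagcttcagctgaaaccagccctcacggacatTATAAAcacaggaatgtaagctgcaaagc
Cldn2: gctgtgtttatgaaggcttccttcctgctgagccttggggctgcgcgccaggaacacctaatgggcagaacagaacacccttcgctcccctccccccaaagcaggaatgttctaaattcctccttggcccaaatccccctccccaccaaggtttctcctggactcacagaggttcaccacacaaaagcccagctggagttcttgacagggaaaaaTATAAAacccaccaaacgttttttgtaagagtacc
Kl: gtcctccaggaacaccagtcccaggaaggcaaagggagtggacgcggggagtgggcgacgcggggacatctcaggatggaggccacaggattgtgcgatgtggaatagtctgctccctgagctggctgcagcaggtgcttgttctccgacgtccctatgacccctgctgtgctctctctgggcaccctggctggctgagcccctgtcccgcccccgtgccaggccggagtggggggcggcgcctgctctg
The Kcnj13 window held 1 TATAAA and 2 CCAAT matches at 45.2% GC, the Cldn2 window 1 TATAAA match at 52.0% GC, and the Kl window no match at 66.8% GC with 13 CpG dinucleotides. Over all 32851 windows of this length the median GC content was 52.4%. TATAAA stood in 12.4% of all windows and CCAAT in 33.8%.

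RefSeq windows were found for 5 of the 10 genes (Kl, Aqp1, Kcnj13, Otx2 and Cldn2), 8 windows in all because Otx2 has several starts. TATAAA stood in 3 of the 8, 1 each of Cldn2, Kcnj13 and Otx2. TAATCC, the core that OTX proteins bind, was searched on both strands and stood in 1 of the 8, a window of Otx2 itself, against 6.25% of all windows. TGTTTAC (forkhead core) and CACGTG (E-box) stood in none of the 8, against 3.17% and 6.02% of all windows. None of the 5 motifs contains another. These are matches of letters, and a window without a match says nothing of sites elsewhere.

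The spread between libraries of a group was compared with that of every tested gene, as the SD of log2 CPM around the 4 group means (16 degrees of freedom). It was 2.72 for Ttr, rank 6 of 19623 genes, 2.32 for Cldn2, rank 10, and 1.97 for Folr1, rank 23. Kl (1.65), Aqp1 (1.56), Clic6 (1.53), Kcnj13 (1.51), Sostdc1 (1.50) and Otx2 (1.47) held ranks 42 to 69. Enpp2, at 0.92 and rank 254, was the only one of the 10 outside the 100 genes with the largest spread. The median over all tested genes was 0.20 and the 99th percentile 1.00. The SD between the 4 group means, on the same scale, was 1.01 for Ttr and 0.28 to 0.68 for the other 9 genes, below the spread within groups for each gene. A mean over 5 libraries varies less than single libraries do, so this order does not show that groups differed less than libraries.

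**Figure D2:**
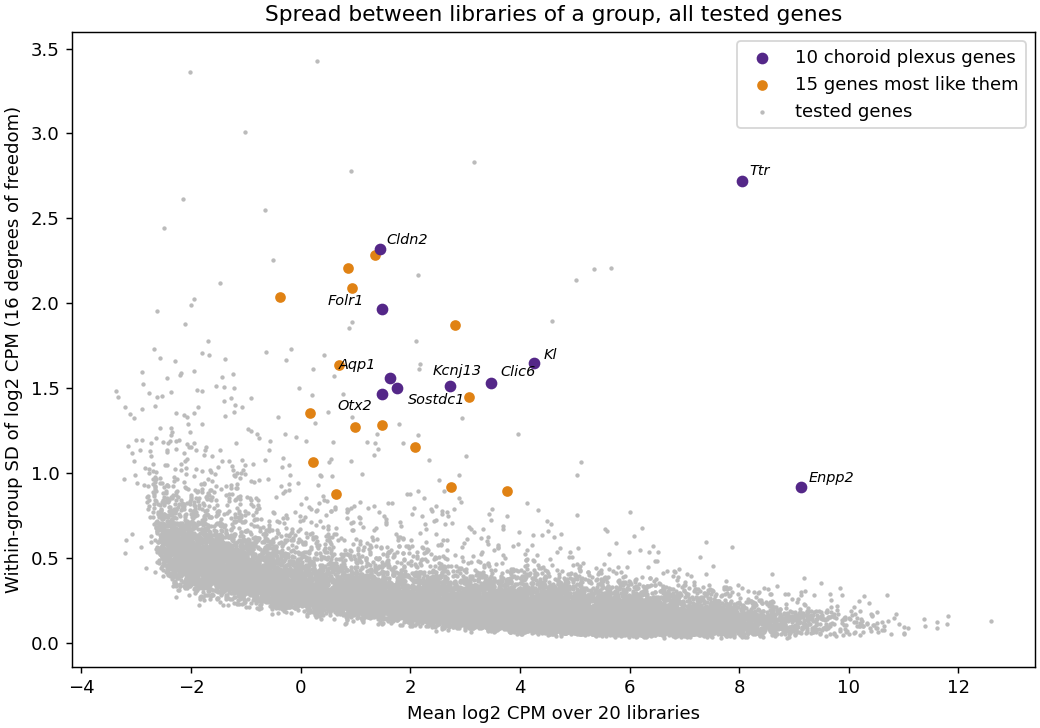
Spread between libraries of a group (within-group SD of log2 CPM) against mean log2 CPM over 20 libraries, 1 point per tested gene. The 10 choroid plexus genes, named, lie above the bulk of the 19623 genes, Ttr at 2.72 and Enpp2 at 0.92, and orange points are the 15 genes whose pattern was most like theirs.

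The 10 genes were correlated in every pair. Over the 20 libraries, Pearson's r of log2 CPM ran from 0.901 (Ttr with Enpp2) to 0.993 (Kl with Clic6), with a median of 0.964 over the 45 pairs. Spearman's rho ran from 0.896 to 0.985. Each Pearson correlation had a Benjamini-Hochberg adjusted p of 1e-05 over the 45 pairs, the smallest that 100000 permutations can give, and the adjusted p of rho was at most 2e-05. Without the 2 libraries farthest from the median of the first gene of a pair, r ran from 0.892 to 0.995. With the group means subtracted, so that genotype and age were taken out, r ran from 0.917 (Aqp1 with Otx2) to 0.993, and 45 of 45 pairs passed a permutation test within groups. Within the libraries of 10 months r ran from 0.939 to 0.994, and within those of 3 months from 0.854 to 0.995, again with 45 of 45 pairs passing. Without the library with Xist counts r ran from 0.8935 (Ttr with Enpp2) to 0.9929 (Kl with Clic6), and 45 of 45 pairs passed too.

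**Figure D3:**
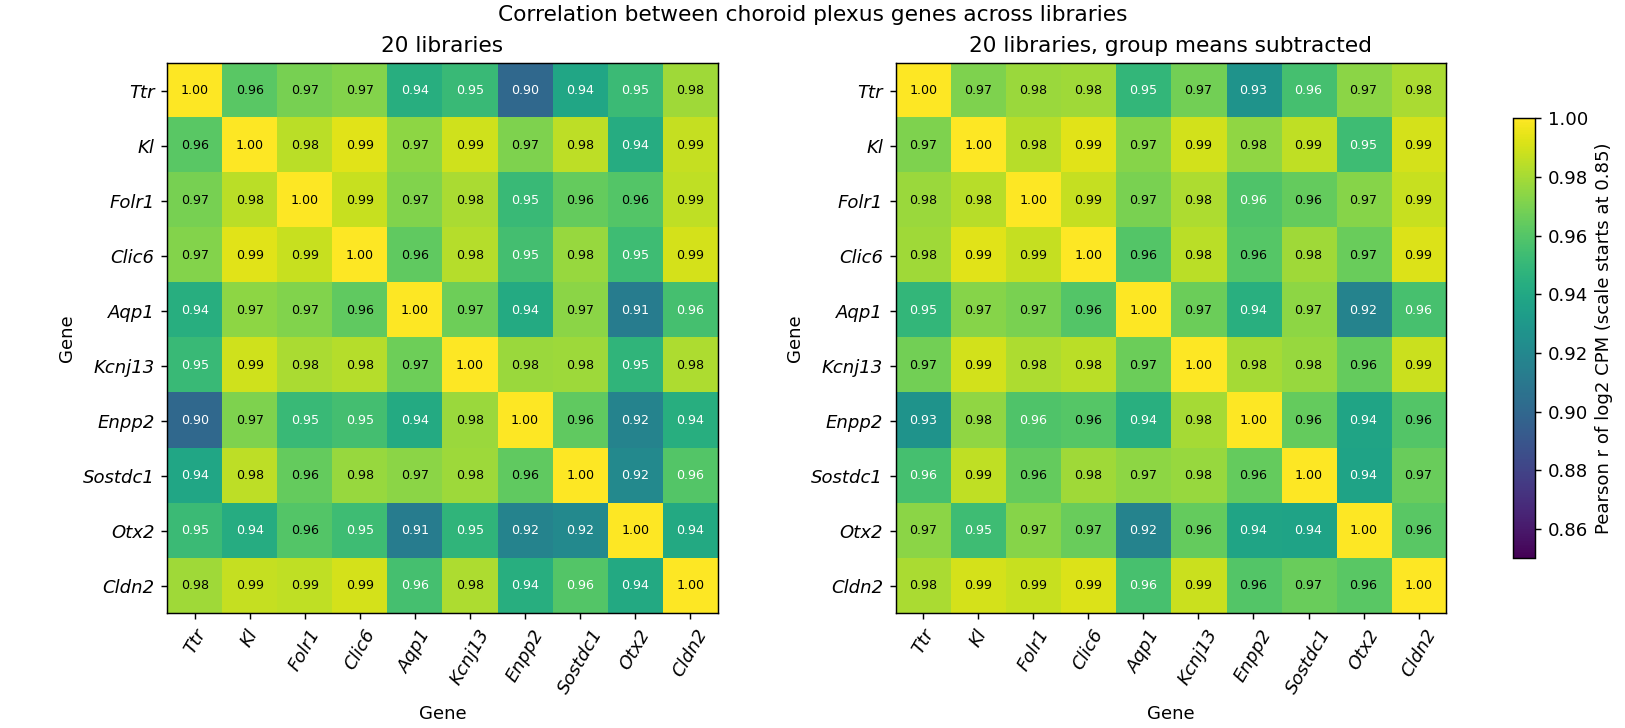
Pearson r of log2 CPM for each pair of the 10 genes over 20 libraries, as measured and with group means subtracted. Colour starts at 0.85; the lowest value is that of Ttr with Enpp2 (0.901) in the first panel and that of Aqp1 with Otx2 (0.917) in the second.

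Ttr levels were uneven over the libraries, though no single wide gap split them. The 7 lowest libraries held 13.9 to 50.7 CPM and the 11 highest 747 to 2036 CPM. Control replicate 10 of 10 months (124 CPM) and control replicate 7 of 3 months (302 CPM) lay between. The correlations over all 20 libraries therefore include this contrast of low with high libraries. The largest gap between neighbouring libraries, from 302 to 747 CPM, was 1.31 of a range of 7.19 on the log2 scale, and the second largest was 1.29. The relation was also computed on either side of this gap, an alternative added after the data were seen. In the 11 libraries above it, 45 of 45 pairs passed, with r from 0.782 (Ttr with Enpp2) to 0.991. In the 9 libraries below it, 36 of 45 pairs passed by Pearson's r and 6 by Spearman's rho, with r from 0.370 (Sostdc1 with Otx2) to 0.956 (Kcnj13 with Cldn2). Counts were lowest on this side, down to 11 for Cldn2, 16 for Folr1 and 23 for Otx2.

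Library by library, the extremes were shared. The same 4 libraries were the 4 highest for each of the 10 genes, namely control replicates 6 and 8 of 10 months and KI replicates 3 and 5 of 3 months. There were 5 libraries among the 7 lowest of every gene: KI replicates 4 and 6 and control replicate 9 of 10 months, KI replicate 4 and control replicate 6 of 3 months. Each of the 4 groups thus held at least 1 library at the low end. Within groups, Dixon's test on CPM without logarithm set no single library apart from the other 4 in any of the 40 combinations of gene and group. The largest ratio was 0.492 (Enpp2) against a critical value of 0.710. The test was not run on log2 CPM, the scale of the spreads above, on which low libraries lie farther apart.

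The genes moved together but not by the same factor. Regressed on log2 Ttr over the 20 libraries, the slope was 0.81 ± 0.04 (SE) for Cldn2, 0.68 ± 0.04 for Folr1 and 0.57 ± 0.04 for Kl. Clic6, Aqp1, Otx2, Kcnj13 and Sostdc1 had slopes of 0.50 to 0.54, and Enpp2 a slope of 0.30 ± 0.03. The ratio of Ttr to Kl counts accordingly ran from 2.66 in KI replicate 5 of 10 months to 42.5 in control replicate 8 of 3 months, a 16.0-fold range. It was next lowest, at 3.40, in KI replicate 6 of 10 months, and next highest, at 39.9, in control replicate 10 of 3 months. The ratio of Kl to Clic6 stayed between 1.33 and 2.21, a 1.67-fold range, and that of Kl to Kcnj13 between 1.84 and 3.55. Enpp2 counts were 14.1 to 72.3 times those of Kl, and highest relative to Kl in libraries where Kl was low.

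**Figure D4:**
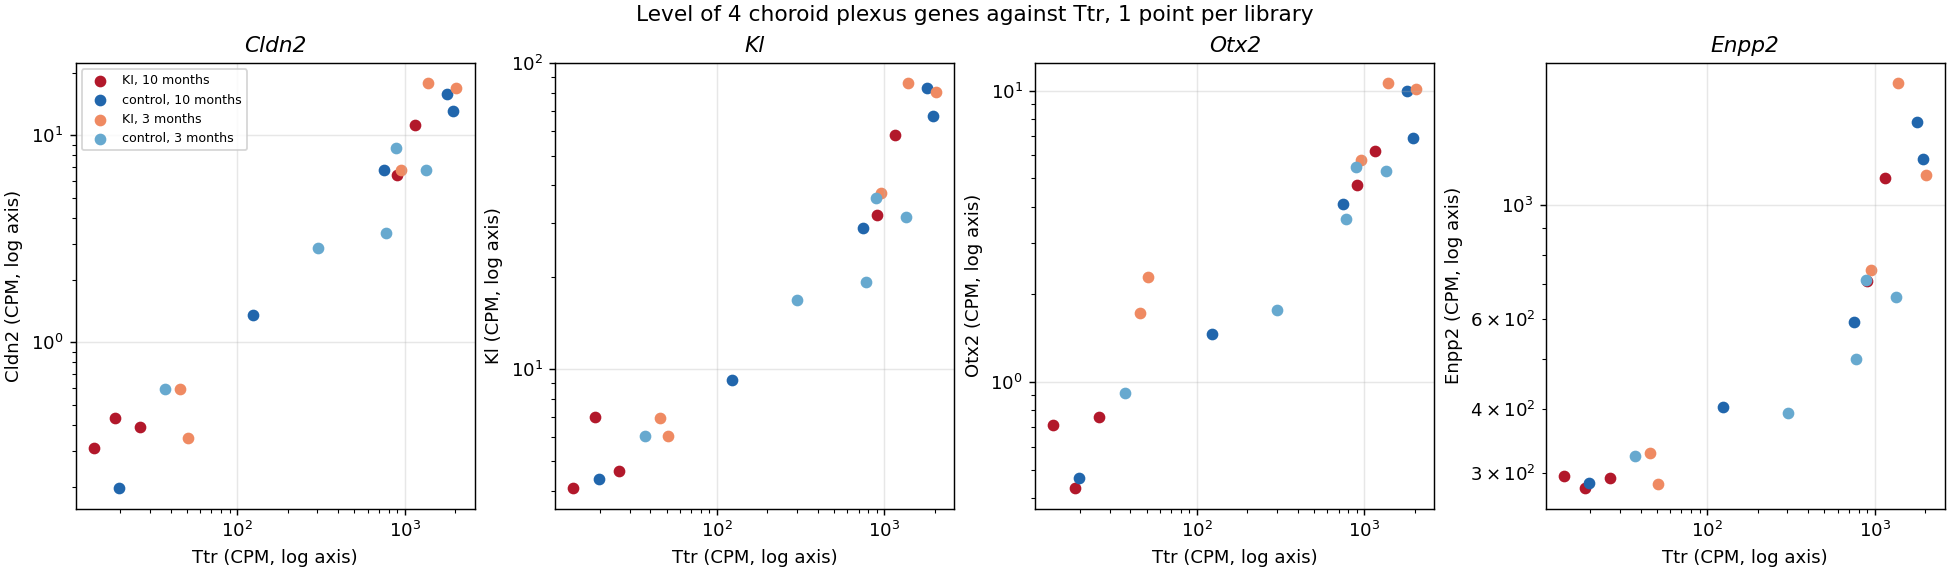
Cldn2, Kl, Otx2 and Enpp2 (CPM, log axes) against Ttr, 1 point per library, coloured by group (KI and control, 10 and 3 months). Points of all 4 groups lie along 1 band in each panel, which is steepest for Cldn2 (slope 0.81) and flattest for Enpp2 (0.30), where the 7 libraries lowest in Ttr lie between 280.0 and 328 CPM.

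The 10 genes were set beside 30 further genes known from choroid plexus epithelium. This list was chosen with earlier results of these data known, so it is no independent check. Of these, 25 had r over 0.8 with the mean log2 CPM of the 10 genes across the 20 libraries. That was 83.3%, against 0.571% (112 genes) of the 19613 tested genes outside the 10, the 30 included. The median r of the list was 0.92, against -0.02 over all tested genes. The lowest in the list was Pon3, a paraoxonase, at 0.375. These correlations are descriptions across libraries that share depth and scaling, and are given without a p.

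Apart from the 10 and from gene models without a proper name, and among tested genes averaging 1 CPM or more, the pattern most like theirs was that of Prr32 (r = 0.989). Next came Slc4a5, a sodium bicarbonate cotransporter (0.989), Tmem72 (0.988), the potassium channel subunit Kcne2 (0.988), the metalloreductase Steap1 (0.983), coagulation factor F5 (0.981), Wdr86 (0.978) and Drc7 (0.977). The list of 15 was completed by the basement membrane collagens Col4a4 (0.960) and Col4a3 (0.959), Calml4 (0.960), the glucose transporter Slc2a12 (0.955), the prolactin receptor Prlr (0.952), the keratin Krt18 (0.951) and Mfrp (0.950). Levels were low for most of them: Tmem72 ranged from 0.270 to 14.8 CPM, F5 from 0.937 to 47.2 CPM and Prlr from 1.98 to 43.7 CPM.

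Genes that share a pathway with the 10 but are active throughout the brain mostly did not follow them. Of 24 genes for ion transport into cerebrospinal fluid, 5 had r over 0.8: Slc4a5, Kcne2, the calcium channel Trpv4 (0.948) and the carbonic anhydrases Car12 (0.900) and Car14 (0.874). The sodium pump subunit Atp1b1 (r = -0.009) and the sodium-potassium-chloride cotransporter Slc12a2 (r = 0.566) were below that value. Of 19 junction genes tested, Tjp3 (0.880), Ocln (0.865) and Cldn9 (0.856) passed 0.8. None of 12 tested partners of klotho and FGF signals, 14 of autotaxin and lysophosphatidic acid, or 14 of BMP and WNT signals reached 0.8.

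Markers of other cells near the ventricles were set beside the 10 genes. Of 15 ependyma markers, 2 (Dynlrb2, 0.907, and Mia, 0.826) had r over 0.8, and Foxj1, the regulator of motile cilia, had 0.428. The median r of the ependyma list was 0.43 (0.55 with group means subtracted), and 6 of the 15 were over 0.5. The 2 over 0.8 were 13.3% of the list, against 0.571% of all tested genes outside the 10. The ependyma markers summed to 72.4 to 96.4 CPM in KI and 64.5 to 119.9 CPM in control at 10 months, and to 78.9 to 112.7 CPM in KI and 82.3 to 94.3 CPM in control at 3 months, with no marker at 0 in all libraries. Igf2, listed both for choroid stroma and for meningeal fibroblasts, had r = 0.841 (44.2 to 169 CPM), and no other gene of those lists reached 0.8. No gene did among the endothelial, border macrophage, erythrocyte, oligodendrocyte, astrocyte, thalamus, habenula, striatum, hippocampus and cortical layer markers. The oligodendrocyte markers, of interest because oligodendrocytes express Enpp2, had a median r of -0.001. Whether ependyma or stroma cells took part in the spread of the 10 genes was not tested.

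At 10 months, KI libraries were compared with control libraries to ask whether the Abca7 substitution went with a change in the choroid plexus genes. Mean Ttr was 422 ± 559 CPM in KI libraries and 927 ± 908 CPM in control libraries (SD over 5 libraries each). Mean Kl was 21.2 ± 23.8 CPM in KI libraries and 38.6 ± 35.2 CPM in control libraries, and mean Aqp1 2.79 ± 2.70 CPM in KI libraries and 6.07 ± 5.89 CPM in control libraries. Each SD was close to the mean or above it in KI. All 10 log2 fold changes were below 0, with a median of -0.88 (from -1.13 for Ttr to -0.55 for Enpp2) against 0.00 over all tested genes. None of the 10 was called (edgeR quasi-likelihood F test, adjusted p 0.8059 to 0.9034), against a background of 0.0612% of genes called in either direction, and none had an unadjusted p under 0.05. The 95% interval was -4.12 to 1.85 for Ttr and -1.72 to 0.62 for Enpp2, so the interval of Ttr held large differences in both directions. Because the genes moved together, their 10 equal signs are not 10 independent observations.

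The exact permutation test over all assignments of 5 against 5 libraries gave p from 0.2857 to 0.5 for the 10 genes at 10 months (2-sided, unadjusted), where the smallest possible value is 0.00794. No gene of the 10 had ranges that did not overlap, against 1.49% of all tested genes. The median log2 fold change was -1.68 without KI replicate 7, -0.44 without control replicate 6 and -0.58 without control replicate 8, so single libraries set its size. Without the library with Xist counts (KI replicate 5) it was -0.66, and again no gene was called.

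At 3 months the same comparison gave the opposite sign. Mean Ttr was 893 ± 862 CPM in KI libraries and 666 ± 509 CPM in control libraries (SD over 5 libraries each). Mean Clic6 was 21.7 ± 17.6 CPM in KI libraries and 13.2 ± 7.14 CPM in control libraries, and mean Cldn2 8.49 ± 8.51 CPM in KI libraries and 4.46 ± 3.24 CPM in control libraries. All 10 log2 fold changes were above 0, with a median of 0.89 (0.42 for Ttr to 1.00 for Folr1) against 0.01 over all tested genes. None was called (edgeR, adjusted p 0.9998 for each; lowest unadjusted p 0.2197, Enpp2), against 0.0255% of genes in either direction. Several marker lists of other cells and regions also lay higher in KI than in control at 3 months, with no gene called. Log2 fold changes were above 0 for 12 of 12 thalamus (median 0.46) and 17 of 18 meningeal fibroblast markers (0.27). The same held for 13 of 15 ependyma (0.18) and 10 of 10 border macrophage markers (0.23). Other lists lay lower in KI: 0 of 5 erythrocyte (-0.81) and 3 of 11 hippocampus markers (-0.30) were above 0. So were 3 of 12 striatum (-0.10) and 5 of 12 astrocyte markers (-0.02). Over all tested genes, 52.4% were above 0. The thalamus list summed to 178 to 348 CPM in KI and 130.1 to 264 CPM in control, and the meningeal list to 382 to 524 CPM in KI and 277 to 458 CPM in control. The part of these markers in the values of the 10 genes was not tested. The difference of mean log2 CPM was -0.15 for Ttr, so the sign of Ttr depended on whether means were taken before or after the logarithm. Exact permutation p-values ran from 0.3175 to 0.9762, and no gene had separate ranges, against 0.657% of all tested genes. The median was 0.51 without KI replicate 3 and 0.58 without KI replicate 5.

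Averaged over both ages, 5 of the 10 genes were above 0 and 5 below in KI against control, with a median log2 fold change of -0.0044 and none called, against 0.0764% of genes (edgeR, adjusted p 0.9723 to 0.9986). Without the library with Xist counts that median was 0.13, and again none was called. The change of the genotype difference with age, the interaction, was below 0 for all 10 genes, from -2.09 ± 1.23 (SE) for Aqp1 to -1.26 ± 0.78 for Enpp2, with a median of -1.77, or -1.57 without the library with Xist counts. No gene of the 10 was called for it (edgeR, adjusted p 0.9995 for each; lowest unadjusted p 0.1063, Aqp1), against 0% of all tested genes. For the interaction 883 of the 19623 genes had an unadjusted p under 0.05. DESeq2 called 4 genes and limma-voom with quality weights 3, none of them among the 10. Both genotype comparisons enter it, so it is no independent evidence beside them.

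Age was compared within each genotype. In KI, 10 months against 3 months, all 10 log2 fold changes were below 0, with a median of -1.04 (from -1.32 for Aqp1 to -0.64 for Enpp2), and none was called (edgeR, adjusted p 0.4098 to 0.7212), against 8.06% of genes in either direction. Otx2 averaged 2.57 ± 2.70 CPM at 10 months and 6.11 ± 4.19 CPM at 3 months in KI (SD, n = 5 each), a log2 fold change of -1.25 ± 0.81 (SE) with the lowest exact permutation p of the 10 genes, 0.127. Its lowest value was in the library with Xist counts, without which the log2 fold change was -0.97 (edgeR, adjusted p 0.5501). No gene had separate ranges, against 7.17% of all tested genes. The median was -1.90 without KI replicate 7 of 10 months, -0.64 without KI replicate 3 and -0.69 without KI replicate 5 of 3 months, and -0.77 without the library with Xist counts. In the same libraries all 12 thalamus markers were lower at 10 months in KI (median -0.92) and 11 of them fell by the test, among them Tcf7l2 (-1.50 ± 0.30, adjusted p 0.00225). The thalamus list summed to 122 to 145 CPM at 10 months and 178 to 348 CPM at 3 months in KI, with no marker at 0 in all libraries, and its part in the values of the choroid plexus genes was not tested. The highest thalamus sum, 348 CPM, was in KI replicate 4 of 3 months, where Ttr was 45.3 CPM. The next highest were in KI replicate 7 (265 CPM) and control replicate 8 (264 CPM) of 3 months, where Ttr was 954 and 1336 CPM. In control all 12 thalamus markers were lower at 10 months too (median -0.50), and 1 of them fell by the test.

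In control mice, 10 months against 3 months, all 10 log2 fold changes were above 0, with a median of 0.76 (0.42 for Otx2 to 0.90 for Folr1). None was called (edgeR, adjusted p 0.7623 to 0.9497), against 4.07% of genes in either direction. Exact permutation p-values ran from 0.4206 to 0.9841, and no gene had separate ranges, against 5.69%. The difference of mean log2 CPM was -0.14 for Ttr. The median was 0.27 without control replicate 6 and 0.42 without control replicate 8 of 10 months, and 0.50 without control replicate 6 of 3 months. The age comparisons share libraries with the genotype comparisons, so their signs are not independent of each other.

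**Figure D5:**
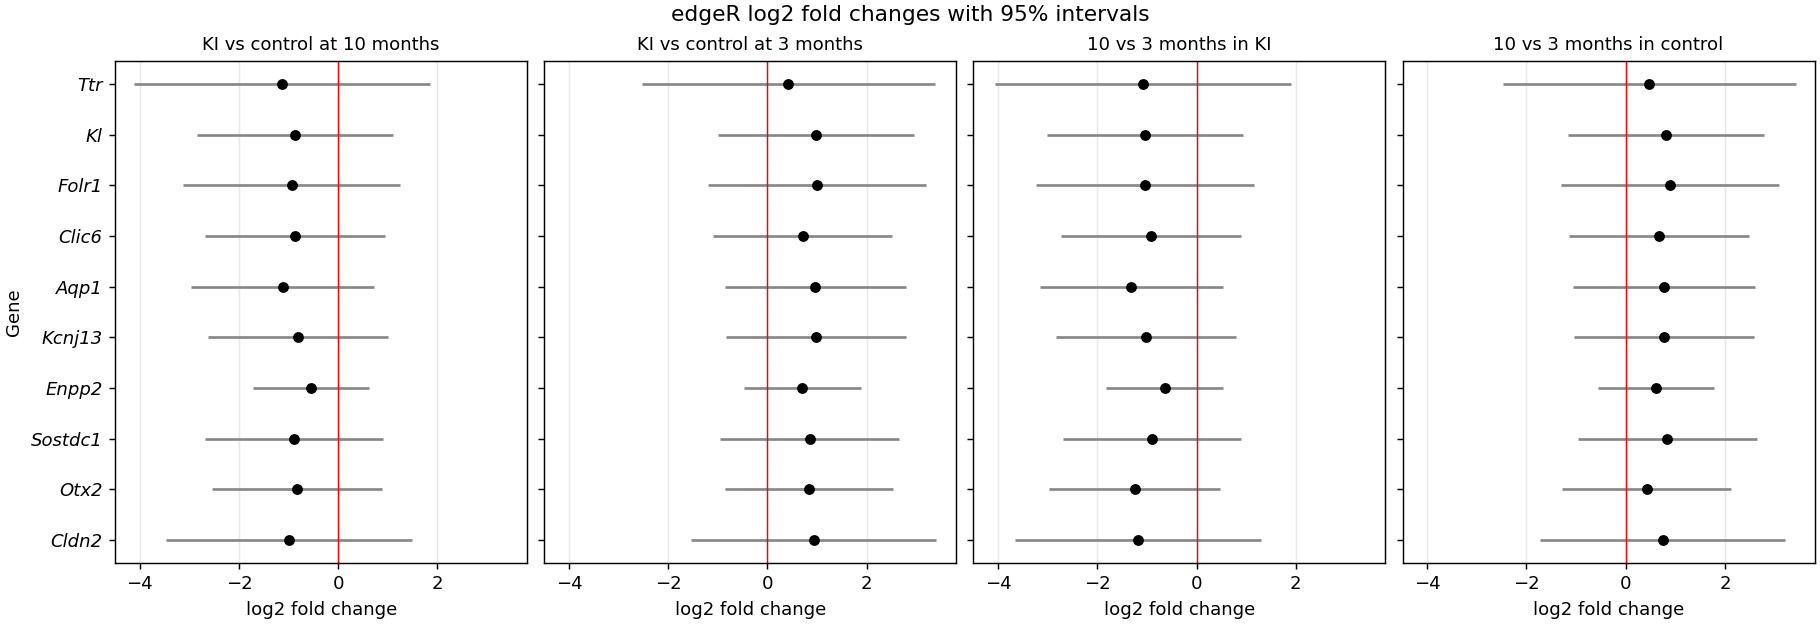
edgeR log2 fold changes of the 10 genes with 95% intervals in the comparisons of KI with control at 10 and at 3 months and of 10 with 3 months in KI and in control. Every interval includes 0; the points lie on the same side of 0 within a panel.

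Among the 30 further choroid plexus genes, none was called between KI and control at either age. The background was 0.0612% of all tested genes at 10 months and 0.0255% at 3 months. Their median log2 fold change was -0.60 at 10 months, with 0 of 30 above 0, against 50% of all tested genes. It was 0.65 at 3 months, with 30 of 30 above 0, against 52.4%. Since 25 of the 30 had r over 0.8 with the 10 across the same libraries, these signs are no further observations. Of these genes, 1 of 30, Pon3, rose with age in control (1.37 ± 0.31, SE, adjusted p 0.009534), against 4.07% of all tested genes called, and it was also the gene of that list that followed the 10 least. The list's median was 0.47 for age in control and -0.73 for age in KI, where none was called. In the pathway lists no gene was called for genotype. With age in KI, Kcnj2 rose (0.73 ± 0.11, adjusted p 8.261e-05) and Kcna3 fell among 24 ion transport genes, F11r rose and Cdh2 fell among 19 junction genes, Dio3, which inactivates thyroid hormone, fell (-1.17 ± 0.24, adjusted p 0.002913) among 20 genes for thyroid hormone, retinol and folate, and of 14 autotaxin partners the lipid phosphatase Ppap2b rose and the lysophosphatidic acid receptor Lpar4 fell. With age in control, F11r, Rlbp1 and Adam17 rose, 1 each of 19 junction, 20 thyroid hormone, retinol and folate and 12 klotho genes, and no autotaxin or BMP partner was called. These counts are near the background of 8.06% of all tested genes called with age in KI and 4.07% in control, so they are no result about the pathway lists. With age in KI, 2 of 6 choroid stroma markers fell, and of 12 endothelial markers 1 rose and 3 fell. In both of these small lists the share lay above the 8.06% of all tested genes. So it did where 2 of 5 erythrocyte and 3 of 12 astrocyte markers rose and 2 of 7 habenula markers fell. Their part in the values of the 10 genes was not tested. With age in KI, 1 of 16 oligodendrocyte markers rose and 1 of 12 cortical layer markers fell. None of 15 ependyma, 18 meningeal fibroblast or 10 border macrophage markers was called there.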

How the data were processed

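For each gene and each of 20 cortex libraries, the authors deposited raw counts in 1 table, on build mm10 per the submitters' processing notes. Neither aligner nor counter nor strand setting is given in the sources used here, so overlapping genes may share reads. Genes and gene lists were chosen with earlier results of these data known. Of 296 list entries, 291 matched by symbol and 5 by gene ID. Counts were filtered with filterByExpr, scaled by TMM (factors 0.972 to 1.03) and tested with edgeR 4.0.16 in R 4.3.3 (quasi-likelihood F test, robust, all 20 libraries in 1 fit of 4 group means, with 16 residual degrees of freedom). P-values were adjusted by Benjamini-Hochberg over 19623 genes, with calls at 0.05. CPM are scaled by TMM, and log2 CPM has a prior count of 2. Correlations were tested with 100000 permutations, 2-sided, and single genes also with exact permutations. Likeness is Pearson's r with the mean of the 10 genes' centred log2 CPM. Named were all 10 genes, the 15 most alike and, of each list, up to 4 genes with the smallest p, while other list genes named for their r were chosen after their values were seen. Alternatives were RLE scaling, other filters and prior counts, DESeq2 1.42.0 and limma-voom with quality weights per library (limma 3.58.1). Further alternatives were only the compared libraries, a replicate block and leaving out each library. The scripts were tested on simulated data. Promoter windows come from RefSeq (GRCm38.p6).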

Additional observations from a re-analysis of the deposited data

How the results depend on the processing

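No gene of the 10 was called in any of the 6 comparisons under any alternative run, and 45 of 45 pairs passed under each alternative except in the 9 libraries below the largest Ttr gap (36). The lowest adjusted p over the alternatives was 0.5702 for KI against control at 10 months, 0.7748 at 3 months, 0.1981 for age in KI (Otx2, without KI replicate 7 of 10 months), 0.6356 for age in control, 0.8548 for the interaction and 0.813 for genotype averaged over both ages. The genotype difference at 10 months, age in KI and the interaction kept their sign for every gene. Single genes changed sign elsewhere, and the cause was not tested. At 3 months Ttr ran from -0.14 to 0.84 when each library was left out, and for age in control Otx2 ran from -0.088 to 0.72. Under limma-voom with quality weights, which weight libraries unequally, the age difference in control was -0.33 for Ttr, -0.13 for Folr1, -0.040 for Aqp1, -0.18 for Otx2 and -0.21 for Cldn2. Its median over the 10 genes was -0.01 there, and the genotype median at 10 months was -0.25.

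The labels' replicate numbers do not tie libraries of different groups together: 3 of 18 same-numbered pairs had deviations correlated above 0.1, and 1 of 20 libraries correlated best with its own number. KI libraries carry the numbers 3 to 7 and control libraries 6 to 10. A replicate block thus ties the genotypes together only through numbers 6 and 7, so its genotype differences rest on few libraries. With the number as a replicate block, 0 of the 10 genes were called. The median genotype difference was -1.35 at 10 months and 0.07 at 3 months, and at 3 months Ttr was at -0.99 and Cldn2 at -0.22. The depth limits Cldn2, Folr1 and Otx2 most, with 11, 16 and 23 counts in their lowest libraries, while the spread between 5 libraries limits all comparisons.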
